A study of Mus musculus with 44 samples.

Results

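The genes described here are 10 markers of T lymphocytes, Cd3e, Cd3d, Cd3g, Cd8a, Cd8b1, Cd4, Cd2, Cd5, Lck and Trbc2, out of 55487 genes counted in the mouse nucleus accumbens, a ventral part of the striatum. They were picked by symbol with the bulk result in view, so their bulk values are a description and carry no test. All 10 were present in both count tables and all 10 passed the filter on low counts in each, among 18579 genes tested in bulk and 43902 in sorted nuclei. The study used viruses to deliver RXRa, the alpha form of the retinoid X receptor, which partners other nuclear receptors on DNA.

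The bulk table held 8 libraries of whole tissue from male mice, made from poly(A) RNA. Of these, 4 came from mice infused with HSV-GFP, a herpes simplex virus vector for green fluorescent protein, and 4 from mice given HSV-RXRa-GFP. The sorted table held 36 libraries of total RNA from nuclei labelled D1 or D2, the striatal projection neurons that carry the dopamine receptors Drd1 and Drd2. Those mice, of both sexes, received AAV9-CAG-DIO-EGFP or AAV9-CAG-DIO-EGFP-P2A-RXRa, adeno-associated virus vectors whose CAG-driven insert is switched on only where Cre recombinase is present. EGFP and RXRa libraries numbered 5 and 4 in D1 females, 5 and 4 in D1 males, 4 and 4 in D2 females and 5 and 4 in D2 males. The remaining sorted library had a title and a vector label that named different vectors, and it entered no comparison. Strain, age, the time after infusion and pooling of animals are not given in the sources used here, and the promoter of the herpes vectors and the source of Cre are likewise not given. The labels do not state that replicates were separate animals, so p-values measure the spread between these samples, which may be technical.

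T cells recognise peptide fragments through the T cell receptor, whose antigen-binding chains cannot signal alone and are assembled with the CD3 chains. The coreceptors CD8 and CD4 mark the cytotoxic and helper lineages and bring the kinase Lck to the receptor, where it starts signalling by phosphorylating CD3 tails. T cells are scarce in healthy brain parenchyma and enter it during infection or inflammation, where microglia are the resident immune cells.

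Total counts ranged from 21567565 to 29167142 in bulk (median 27375134) and from 12211655 to 27757463 in the sorted table (median 20767752.5). The vector's own RXRa sequence had 0 counts in the 4 bulk GFP libraries and 22.1 to 37.7 CPM (counts per 1000000 of the scaled library size) in the 4 bulk RXRa libraries. It stayed at or below 0.877 CPM in the sorted EGFP libraries and lay between 43.4 and 710 CPM in the sorted RXRa libraries. The striatal gene Ppp1r1b, Drd1 and Drd2 were present in every bulk library, at 990 to 1263, 196 to 278 and 167 to 233 CPM. Drd2 lay at 520 to 1779 CPM in the 17 D2 libraries and 49.0 to 106 CPM in the 18 D1 libraries. Drd1 lay at 30.7 to 83.8 CPM in D1 and 6.49 to 38.6 CPM in D2, so that the Drd1 ranges overlapped. Among the bulk RXRa libraries, replicates 2 and 4 stood above replicates 1 and 3 for all 10 T cell markers, which bears on every bulk value below.

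The 3 CD3 genes form a cluster on chromosome 9 of the mouse assembly GRCm38. Cd3g (chr9:44969572-44980431, minus strand) and Cd3d (chr9:44981786-44987339, plus strand) point away from each other with their starts 1355 bases apart. The start of Cd3e (chr9:44998740-45009627, minus strand) lies 27841 bases from that of Cd3d. The 250 bases before each RefSeq start are printed here because these 3 neighbours shared their pattern over the bulk libraries. The other markers except Cd4, on other chromosomes, shared it too, so it was not particular to this cluster. The sequences come from RefSeq promoters on GRCm38.p6, read 5′ to 3′ on the strand of the gene, at chr9:45009612-45009861 for Cd3e (minus), chr9:44981536-44981785 for Cd3d (plus) and chr9:44980432-44980681 for Cd3g (minus). Capitals mark matches, on either strand, to the core letters ACTTCC of ETS factors, AGATAA of GATA factors and the E-box CAGGTG.
Cd3e: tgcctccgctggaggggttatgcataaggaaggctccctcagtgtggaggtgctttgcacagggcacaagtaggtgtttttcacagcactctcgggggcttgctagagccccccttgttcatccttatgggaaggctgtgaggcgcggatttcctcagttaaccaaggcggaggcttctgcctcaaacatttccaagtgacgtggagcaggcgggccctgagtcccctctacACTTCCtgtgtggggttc
Cd3d: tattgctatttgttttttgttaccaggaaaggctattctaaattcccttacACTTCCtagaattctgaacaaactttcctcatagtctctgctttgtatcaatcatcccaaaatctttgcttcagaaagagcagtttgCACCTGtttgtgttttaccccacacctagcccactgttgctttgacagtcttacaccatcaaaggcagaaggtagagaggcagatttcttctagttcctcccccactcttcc
Cd3g: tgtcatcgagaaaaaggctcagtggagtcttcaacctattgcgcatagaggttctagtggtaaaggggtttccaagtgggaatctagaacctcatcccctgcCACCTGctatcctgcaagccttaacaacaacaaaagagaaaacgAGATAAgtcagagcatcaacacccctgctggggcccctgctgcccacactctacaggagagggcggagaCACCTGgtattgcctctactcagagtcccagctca
For Cd3e the RefSeq start lies inside the GENCODE gene given above, so its window also covers the first bases of that gene, while the windows of Cd3d and Cd3g end where the GENCODE genes begin. Counted from the RefSeq starts, Cd3e held an ETS core 18 bases before its start, Cd3d an ETS core 199 and an E-box 112 bases before, and Cd3g a GATA core 104 and E-boxes 148 and 35 bases before. RefSeq windows were found for 6 of the 10 markers, Cd3e, Cd3d, Cd3g, Cd8a, Cd5 and Lck, the last with a pair of start sites, giving 7 windows. Entries for Cd8b1, Cd4, Cd2 and Trbc2 were missing. Of the 7 windows, 5 held ACTTCC against 19.7% of 32851 mouse promoters, 4 held CAGGTG against 17.2%, 1 held AGATAA against 9.99% and 1 held the RUNX core TGTGGT against 14.0%. None of the 7 held the nuclear receptor core AGGTCA (14.0% of promoters), its direct repeat spaced by 1 base, known as DR1 (0.0335%), or the interferon-stimulated response element (2.98%). A match of letters is a description of these windows only.

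In bulk tissue 9 of the 10 T cell markers had a higher mean in the RXRa libraries than in the GFP libraries, and Cd4 did not. The CD3 genes showed the widest separation, at 3.84 to 4.65 times the GFP mean, while Cd4, which had the highest level of the 10 per length in GFP libraries, lay at 0.860 times its GFP mean. For 8 of the 10 every RXRa library lay above every GFP library, a pattern found in 6.64% of the 18579 genes tested, while 0 had every RXRa library below (6.54%), and nothing is read from that count because the genes were picked on this contrast. Cd5 and Cd4 overlapped between the groups. Bulk values cannot tell more cells of a type from more RNA per cell.

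**Figure D1:**
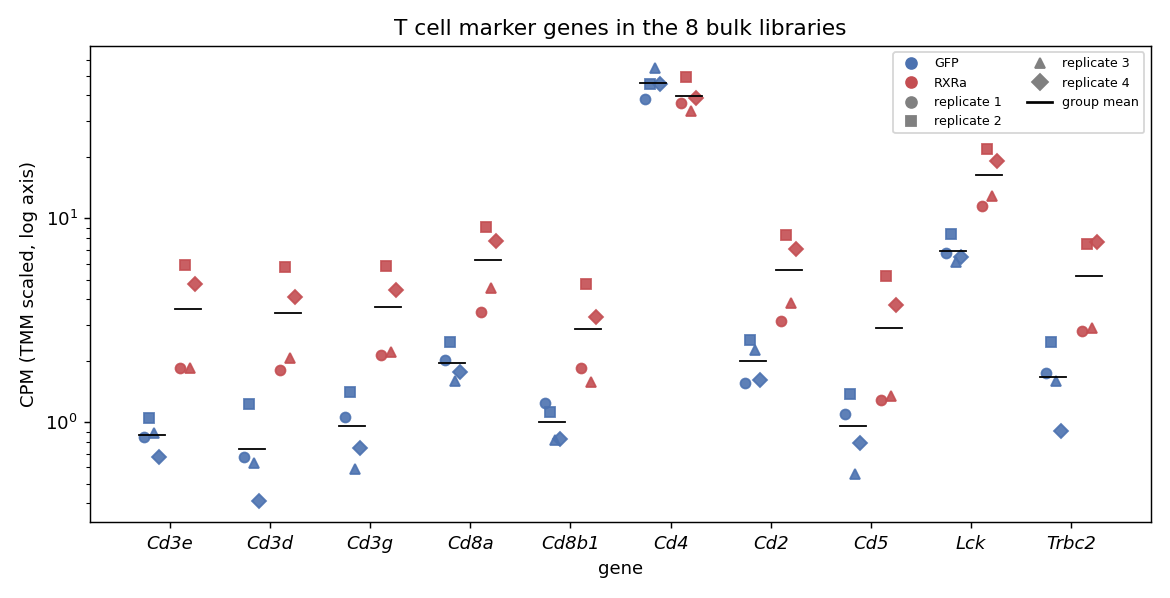
CPM (counts per 1000000, TMM scaled, log axis) of each T cell marker in the 4 GFP (blue) and 4 RXRa (red) bulk libraries, with the replicate shown by symbol and the group mean by a bar. RXRa replicates 2 and 4 lie at the top of their group for each gene, and Cd4 alone has a lower RXRa mean, 39.6 against 46.1 CPM.

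The CD3 chains epsilon, delta and gamma carry the signal of the receptor into the cell. Cd3e had 0.849, 1.05, 0.888 and 0.675 CPM in GFP replicates 1 to 4 and 1.83, 5.92, 1.84 and 4.74 CPM in RXRa replicates 1 to 4, from 18 to 29 and from 40 to 172 counts. Its mean was 0.866 ± 0.154 (SD, n = 4) CPM in GFP and 3.58 ± 2.07 in RXRa, a log2 fold change of 2.05 (SE 0.42). All 4 RXRa libraries lay above the GFP range, but RXRa replicates 1 and 3 lay much closer to it than replicates 2 and 4. Cd3d had 0.672, 1.23, 0.629 and 0.413 CPM in GFP and 1.80, 5.74, 2.07 and 4.09 CPM in RXRa, with a log2 fold change of 2.22 (SE 0.44). Cd3g had 1.06, 1.41, 0.592 and 0.750 CPM in GFP and 2.15, 5.85, 2.21 and 4.46 CPM in RXRa, with a log2 fold change of 1.94 (SE 0.39). Both kept the order seen for Cd3e, with the lowest RXRa library above the highest GFP library. Cd3e overlaps the antisense gene Gm48719 and the unclassified transcript Gm48720, so some of its reads may be shared.

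Trbc2 (chr6:41546730-41548352, plus strand) encodes a constant region of the receptor's beta chain. It had 1.73, 2.46, 1.59 and 0.901 CPM in GFP and 2.81, 7.50, 2.90 and 7.66 CPM in RXRa, with a log2 fold change of 1.64 (SE 0.42). The groups did not overlap, and RXRa replicate 4 was the highest library for this gene, where replicate 2 was highest for the other 9. Its transcript matched that of Trbc1 at 95.59% of 521 aligned bases, so the pair may share reads. Trbc1 itself had means of 1.23 and 4.44 CPM.

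Cd8a (chr6:71373427-71379173, plus strand) and Cd8b1 (chr6:71322788-71337494, plus strand) encode the chains of the CD8 coreceptor and start 50639 bases apart. Cd8a had 2.02, 2.46, 1.59 and 1.76 CPM in GFP and 3.47, 9.05, 4.56 and 7.78 CPM in RXRa, with a log2 fold change of 1.67 (SE 0.31). Cd8b1 had 1.24, 1.12, 0.814 and 0.825 CPM in GFP and 1.83, 4.75, 1.57 and 3.28 CPM in RXRa, with a log2 fold change of 1.52 (SE 0.36). Neither gene overlapped between the groups.

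Cd4 (chr6:124864692-124888221, minus strand), the coreceptor of helper T cells that some dendritic cells also carry, stood apart from the other markers. It had 38.2, 45.6, 54.8 and 45.7 CPM in GFP and 36.7, 49.5, 33.6 and 38.7 CPM in RXRa. The groups overlapped in part, with RXRa replicates 1 and 3 below every GFP library and GFP replicate 3 above every RXRa library. The log2 fold change was -0.22 (SE 0.14). Per kb of exon, Cd4 lay at 11.4 ± 1.68 (SD, n = 4) CPM in GFP libraries, Trbc2 at 2.42 ± 0.925 and Lck at 2.37 ± 0.346. Below these came Cd2 at 1.14, Cd8b1 at 0.674, Cd8a at 0.538, Cd3d at 0.406, Cd3g at 0.292, Cd3e at 0.212 and Cd5 at 0.194 CPM per kb. Neighbours in this order overlapped library by library, except at the steps from Cd4 to Trbc2, from Lck to Cd2 and from Cd2 to Cd8b1. In RXRa libraries Cd4 had 9.83 ± 1.72 CPM per kb and Trbc2 7.54 ± 3.94, and these overlapped, with Lck next at 5.58 ± 1.70 and Cd2 at 3.20 ± 1.43. Cd4 therefore held 67.43 to 78.48% of the summed CPM of the 10 markers in GFP libraries and 38.48 to 55.26% in RXRa libraries.

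Cd2 (chr3:101275899-101287939, minus strand) is an adhesion receptor of T cells and natural killer cells, and Cd5 (chr19:10717116-10739002, minus strand) restrains receptor signalling. Cd2 had 1.56, 2.53, 2.26 and 1.61 CPM in GFP and 3.12, 8.26, 3.83 and 7.09 CPM in RXRa, with no overlap and a log2 fold change of 1.49 (SE 0.33). Cd5 had 1.10, 1.38, 0.555 and 0.788 CPM in GFP and 1.29, 5.19, 1.34 and 3.77 CPM in RXRa, with a log2 fold change of 1.61 (SE 0.49). RXRa replicates 1 and 3 lay inside the GFP range of Cd5, so its higher mean rested on replicates 2 and 4. Lck (chr4:129548344-129573641, minus strand, which contains the microRNA gene Mir8119) had 6.79, 8.40, 6.11 and 6.45 CPM in GFP and 11.4, 22.0, 12.9 and 19.0 CPM in RXRa. Its log2 fold change, 1.24 (SE 0.21), was the smallest of the 9 higher markers and had the smallest SE of them.

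Across all genes, the edgeR quasi-likelihood fit called 6 of the 10 higher (Cd3e, Cd3d, Cd3g, Cd8a, Cd2 and Lck, at a Benjamini-Hochberg adjusted p under 0.05) and 0 lower, where 3.7% of all genes tested were called, 3.01% higher and 0.689% lower. As these genes were picked on this contrast, the calls are given as a description and nothing is read from their number. The median log2 fold change of the 10 was 1.63, and that of all genes -0.02. Without RXRa replicate 2 the 9 markers other than Cd4 had log2 fold changes of 1.06 to 1.84 and the number called was 2. Leaving out RXRa replicate 4 gave 1.16 to 2.13 and 0 called, and leaving out GFP replicate 1, 2, 3 or 4 gave 2, 2, 1 and 0 called. Leaving out RXRa replicate 1 or 3 gave more calls than leaving out any other library. The highest number called, 8, came in 1 fit only, as Cd2 and Trbc2 were each called in 1 of the 8 fits.

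Ratios between markers were taken within each library. Per kb of exon, Cd3d stood at 1.85 ± 0.552 (SD, n = 4) times Cd3e in GFP libraries and 2.21 ± 0.242 times in RXRa libraries, and Cd3g at 1.36 ± 0.375 and 1.34 ± 0.162 times Cd3e. The ratio of Cd8b1 to Cd8a was 1.26 ± 0.176 and 1.11 ± 0.218, and that of Cd8a to Cd3e 2.56 ± 0.389 and 2.11 ± 0.473. Each of these ratios overlapped between the groups. The ratio of Cd4 to Cd8a did not overlap, at 16.7 to 31.1 in GFP and 4.49 to 9.54 in RXRa.

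Within the groups, library by library, the markers other than Cd4 deviated from their group mean together. Over the 8 bulk libraries, with values as log2(CPM + 0.5) and each group mean subtracted, the 36 pairs without Cd4 had Pearson r of 0.807 to 0.992 (median 0.937). The 9 pairs with Cd4 had r of 0.379 to 0.708 (median 0.482). These points share libraries and depth, and the correlations are given as a description. In the 35 sorted libraries the 45 pairs had r of -0.228 to 0.704 (median 0.364), so the tight co-variation of bulk was not found there.

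**Figure D2:**
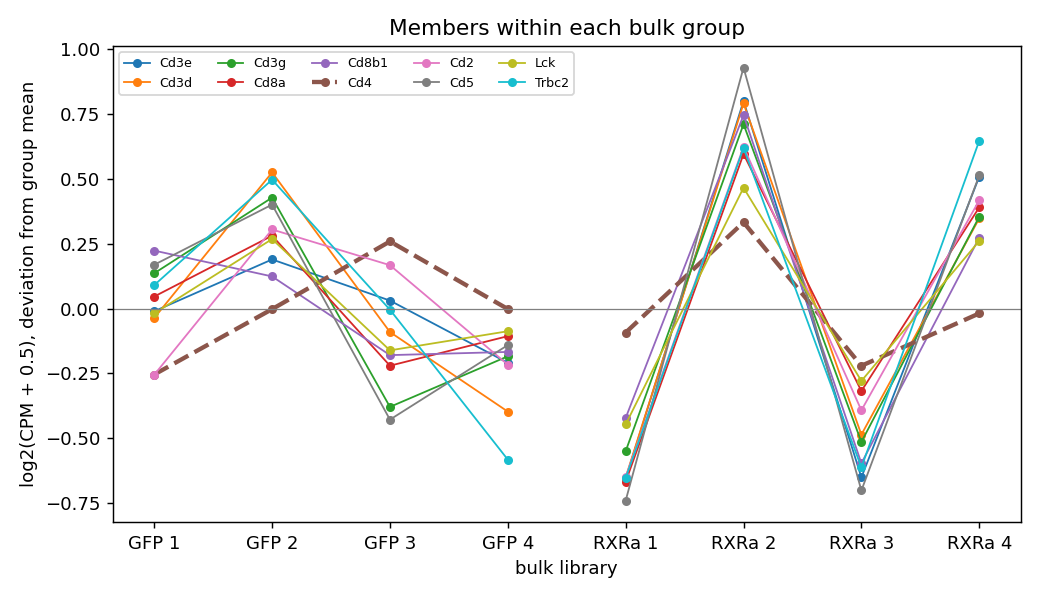
Deviation of each T cell marker from its group mean, in log2(CPM + 0.5), in the 8 bulk libraries. The lines join values of a gene and imply no order of replicates, and the 9 markers other than Cd4 (dashed) rise and dip in the same RXRa libraries.

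The fixed rule for likeness ranked 15999 genes by their correlation with the summed CPM of the 10 markers over the 8 bulk libraries, group means removed. It named Ikzf3 (r = 0.963), Slc25a13 (0.954), Ccdc71l (0.952), Rac1 (0.949), Dazl (0.947), Tnfrsf4 (0.945), Gm47863 (0.944), Ctsw (0.942), Cdk2ap1 (0.942) and Klra7 (0.938). Cd4 alone held 38.48 to 78.48% of that sum in a library. When each marker counted equally, as the mean of log2 values, the 10 nearest genes were Trac (0.990), Gm44861, Ctsw, Tceanc, Cdk2ap2, Gimap6, Acap1, Il27ra, Gmfg and Klri2, and Ctsw was the gene found by both. Of these, Trac encodes the constant region of the receptor's alpha chain and had 1.27 CPM in GFP and 4.52 in RXRa on average. Tceanc, near 3.22 CPM in GFP and 3.55 in RXRa, was in this list with nearly equal group means, so for this gene likeness within groups did not go with a difference between them. Over all ranked genes the median r with the mean of log2 values was -0.03, and 155 genes (0.969%) exceeded 0.9.

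Most of the other T cell genes, 62 in 5 lists, went the same way in bulk. These lists were also chosen with earlier results of these data known, so nothing is read from the counts called. Of the 58 tested, 56 had a higher and 2 a lower log2 fold change (median 1.5), and 32 were called higher and 1 lower, beside 3.01% and 0.689% of all genes. Among receptor chains 3 of 4 were called higher, including Trbc1, with a log2 fold change of 1.86, and Cd247, the zeta chain that carries most of the receptor's signalling motifs, with 1.70. Of 18 receptor signalling genes tested 12 were called higher. They include Ubash3a, a negative regulator of receptor signalling, with a mean of 0.483 CPM in GFP and 2.20 in RXRa, and Ptpn22, a phosphatase that restrains Lck, with 2.63 and 8.71 CPM. Sh2d2a, an adaptor that binds Lck, stood at 2.01 and 8.37 CPM, and Txk, a Tec family kinase, had a log2 fold change of 1.87. Ptprcap had 0 counts in all bulk libraries.

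Costimulation and checkpoint genes were called higher in 5 of 11. Icos and Cd28, which deliver the second signal of T cell activation, had log2 fold changes of 1.65 and 1.63, and Tnfrsf9 one of 1.20. Among 12 transcription factors 5 were called higher and 1 lower, and 10 had a higher and 2 a lower log2 fold change. Their summed CPM averaged 448 in GFP and 421 in RXRa libraries, with overlapping ranges, so the sum did not rise. Eomes and Tbx21, which direct cytotoxic and type 1 helper programmes, had log2 fold changes of 2.05 and 2.04, Runx3, a CD8 lineage factor, 1.80 and Ikzf3 1.51. Receptors for cytokines and homing were called higher in 7 of 13. Il2rb, the beta chain of the interleukin 2 receptor, had 10.02 CPM in GFP and 37.9 in RXRa, Il2ra 1.35 and 4.98, Ccr7, which guides T cells to lymph nodes, 2.69 and 10.5, and Cxcr3, a chemokine receptor of activated T cells, 0.958 and 3.62.

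Markers of other cells moved with the T cell markers to different degrees, and their part in the result was not tested. Their lists too were chosen with earlier results known, so the counts called are a description. The summed CPM of the 9 T cell markers without Cd4 was 17.0, 22.0, 15.0 and 14.2 in GFP replicates 1 to 4 and 29.7, 74.2, 33.2 and 61.9 in RXRa replicates 1 to 4. The 10 cytotoxic and natural killer genes summed to 43.7, 54.2, 39.5 and 34.0 CPM in GFP and to 79.5, 170, 110 and 152 CPM in RXRa. Of these 10, 8 were called higher (median log2 fold change 1.79), led by Klrd1 (2.07), Klrk1 (2.02), Ncr1 (1.86) and Gzmb (1.84). Ncr1 is an activating receptor of natural killer cells that most T cells lack. No gene of this list was at 0 in all libraries of a group.

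The 10 monocyte and dendritic genes summed to 86.6 to 260 CPM in GFP and 229 to 454 CPM in RXRa, and 9 of 9 tested had a higher log2 fold change (median 1.40, beside 1.63 for the T cell markers). Of these, 2 were called, Ly6c2 and Plac8, with log2 fold changes of 2.02 and 1.57. The 8 B cell genes summed to 21.7 to 32.2 and 27.0 to 51.9 CPM, with 5 of 5 tested higher (median log2 fold change 0.91) and 0 called. The 9 microglia genes summed to 736 to 1125 CPM in GFP and 792 to 1109 CPM in RXRa, with 0 called and a median log2 fold change of 0.02. For the cytotoxic, B cell and microglia lists alike, the RXRa libraries ranked 2, 4, 3, 1 from high to low, as for 7 of the 10 T cell markers.

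Red cell genes, a sign of retained blood, summed to 69.7 to 169 CPM in GFP and 50.2 to 136 CPM in RXRa, with 0 of 5 called. Neutrophil genes summed to at most 3.83 CPM in any library, and Ly6g had 0 counts throughout. Endothelial genes summed to 255 to 335 CPM in GFP and 338 to 383 CPM in RXRa with 3 of 7 called higher, among them Kdr at a log2 fold change of 0.71. Aqp4 was the sole astrocyte gene of 5 called higher, at 0.57. Medians of log2 fold change were -0.28 for the 5 oligodendrocyte genes and -0.15 for the 10 striatal neuron genes, with 0 called in either list. All 5 and all 10 of these had a lower log2 fold change. At an unadjusted p under 0.05 the edgeR fit had 8 monocyte and dendritic, 2 B cell, 3 microglia, 0 red cell, 2 oligodendrocyte and 4 striatal neuron genes.

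**Figure D3:**
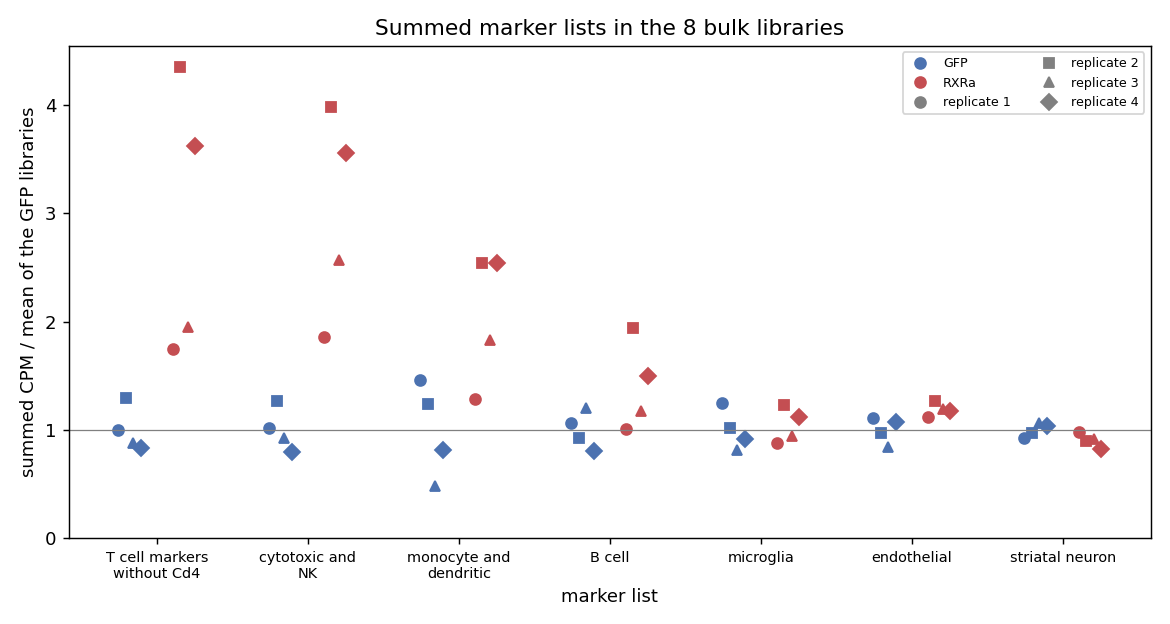
Summed CPM of 7 marker lists in each bulk library, divided by the mean of the 4 GFP libraries of that list, with replicates shown by symbol. RXRa replicates 2 and 4 are the highest for the T cell, cytotoxic and monocyte lists, while microglia and striatal neuron genes stay near the line at 1.

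The sorted nuclei gave the same 10 genes in other libraries, with other vectors, both sexes and another library preparation. They also came from sorted D1 or D2 nuclei, where bulk held whole tissue with all its cells. Differences between the tables cannot be told apart from these. In D1 nuclei, over both sexes, 0 of the 10 passed the edgeR quasi-likelihood test, and 0 of all 43902 genes did (0.0%; 3518 had an unadjusted p under 0.05, and DESeq2 also called 0). The 10 log2 fold changes lay between -0.15 (SE 0.09, adjusted p = 0.656) for Cd3d and 0.09 (SE 0.07, adjusted p = 0.706) for Cd2, with a median of -0.06 beside -0.01 for all genes. Cd3e had -0.05 (SE 0.10), Cd8a -0.07 (SE 0.10) and Lck -0.09 (SE 0.10). Within each sex 0 of the 10 were called in D1 and in D2, where 0.0% of all genes were called by edgeR (1326 to 11080 at an unadjusted p under 0.05, and 0 to 2900 called by DESeq2).

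In D2 nuclei Cd8b1 was the sole marker that passed, and it fell by 0.22 on the log2 scale (SE 0.08, edgeR adjusted p = 0.0474). Of all genes 22.1% were called, 14.9% higher and 7.14% lower, so 1 lower call in 10 is near the background. Cd8b1 had 11.3, 9.52, 10.6 and 10.7 CPM in the D2 female EGFP libraries and 6.70, 10.4, 8.07 and 8.81 CPM in the D2 female RXRa libraries. In D2 males it had 10.7, 11.2, 9.96, 9.03 and 9.25 CPM with EGFP and 10.7, 8.94, 8.22 and 8.25 CPM with RXRa. The groups overlapped in both sexes. The log2 difference was -0.31 (SE 0.12, adjusted p = 0.120) in females and -0.14 (SE 0.11, adjusted p = 0.499) in males. The D2 effect minus the D1 effect was -0.24 (SE 0.11, adjusted p = 0.601), so a difference between the populations was not shown.

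The call on Cd8b1 held in 5 of 17 fits that each left out a D2 library and in 1 of 6 other settings, whose adjusted p ran from 0.0187 to 0.915. Without D2 female RXRa replicate 4 the whole D2 comparison had 0 calls in place of 9683, and scaling by library totals turned the share of higher calls from 67.6% to 18.1%. The other 9 markers in D2 lay between -0.30 (Trbc2, SE 0.15, adjusted p = 0.131) and 0.02 (Cd4, SE 0.07, adjusted p = 0.856). Cd3e, at -0.11 (SE 0.11), and Cd3d, at 0.01 (SE 0.10), did not pass the test either. The median of the 10 was -0.10, beside -0.04 for all genes.

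**Figure D4:**
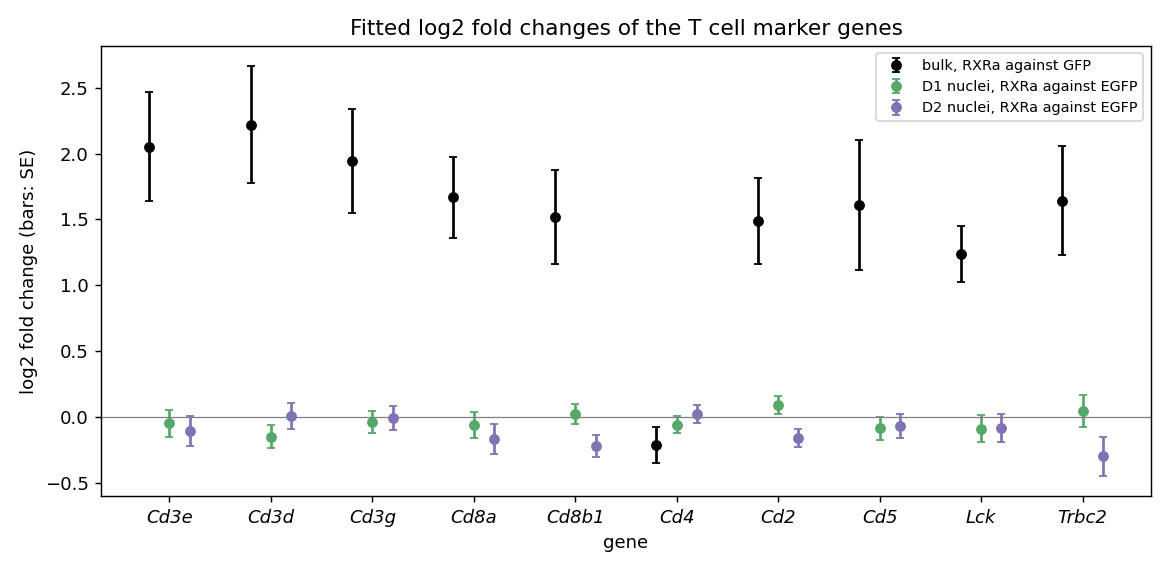
Fitted log2 fold changes of the 10 markers with their standard errors, for bulk (RXRa against GFP, black), D1 nuclei (green) and D2 nuclei (purple, both RXRa against EGFP over both sexes). The sorted values lie between -0.30 and 0.09, while the bulk values other than Cd4 lie between 1.24 and 2.22.

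Of the other T cell genes, 60 were tested in sorted nuclei. In D1 0 were called by edgeR and 0 had an unadjusted p under 0.05, with 16 higher and 44 lower in sign (median -0.05). In D2 1 rose and 9 fell, beside 14.9% and 7.14% of all genes, and the median of the 60 was -0.11. The gene that rose was Bcl11b, a transcription factor of T cells that striatal projection neurons also express, by 0.43 (SE 0.12, edgeR adjusted p = 0.0148). Ikzf1, a lymphoid transcription factor, and Ptprc, the phosphatase CD45, fell by 0.28 (SE 0.06, edgeR adjusted p = 0.0111) and 0.27 (SE 0.07, edgeR adjusted p = 0.0137). Lef1, a Wnt effector in T cells, also fell by 0.27, and Tespa1, Themis, Itga4, Cd96 and Prkcq fell by 0.23, 0.22, 0.22, 0.20 and 0.19 on the log2 scale. In the same comparison 8 of the 10 striatal neuron genes were called higher (median 0.73). Their summed CPM ran from 2233 to 3383 in the D2 EGFP libraries and from 2522 to 6815 in the D2 RXRa libraries, and their part in the T cell values was not tested.

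Total RNA of nuclei includes intron reads and reads spread over the genome, so levels in sorted nuclei were set beside 1576 protein-coding genes of at least 5 kb with no count in any bulk library. Their median density lay between 0.380 and 0.565 CPM per kb of gene body across the 35 libraries. It averaged 0.532 and 0.463 CPM per kb in D2 female EGFP and RXRa libraries, 0.529 and 0.458 in D2 male, 0.504 and 0.444 in D1 female and 0.516 and 0.498 in D1 male ones. That average was thus lower in the RXRa group of both populations and sexes, least so in D1 males, and single libraries overlapped between the vectors in each. The log2 fold change of Cd8b1 was 0.02 in D1 (SE 0.08, edgeR adjusted p = 0.958) and -0.22 in D2, and its cause was not tested. With that density as a covariate, Cd8b1 had a D2 log2 fold change of -0.13 and the edgeR fit called 0 genes (2061 at an unadjusted p under 0.05).

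On this scale the 10 markers had medians of 0.817 to 2.33 times the density of genes with no bulk transcript. Cd3e had a median density of 0.817 times that of the silent genes (range 0.608 to 1.23 over 35 libraries), below the middle of their distribution, at percentile 29.89. Cd2 stood at 1.16 times, Cd8a at 1.18, Cd5 at 1.21, Lck at 1.33, Cd8b1 at 1.38, Cd4 at 1.45 and Cd3d at 1.48 times. Trbc2 and Cd3g were the highest, at 1.92 (range 1.16 to 2.89) and 2.33 times (range 1.53 to 3.54), at percentiles 98.35 and 99.49 of the silent genes. For scale, Drd1 and Drd2 had medians of 14.2 and 3.50 times over all sorted libraries and Ppp1r1b one of 6.59 times. The neuronal gene Rbfox3 stood at 1.61 times (range 1.09 to 3.17), within the range of the T cell markers, so a density near that of silent genes does not show that a gene is not expressed. The leukocyte genes Ptprc and Csf1r stood at 1.20 and 1.14 times. Per kb of exon the order was another, with Cd8b1 at 4.14, Cd3g at 2.33 and Cd8a at 0.574 times the silent genes. Per kb of gene body Cd3g had more reads per kb than nearly all silent genes in D1 and D2 libraries alike, and its D1 and D2 log2 fold changes were -0.04 (SE 0.08) and -0.01 (SE 0.09).

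**Figure D5:**
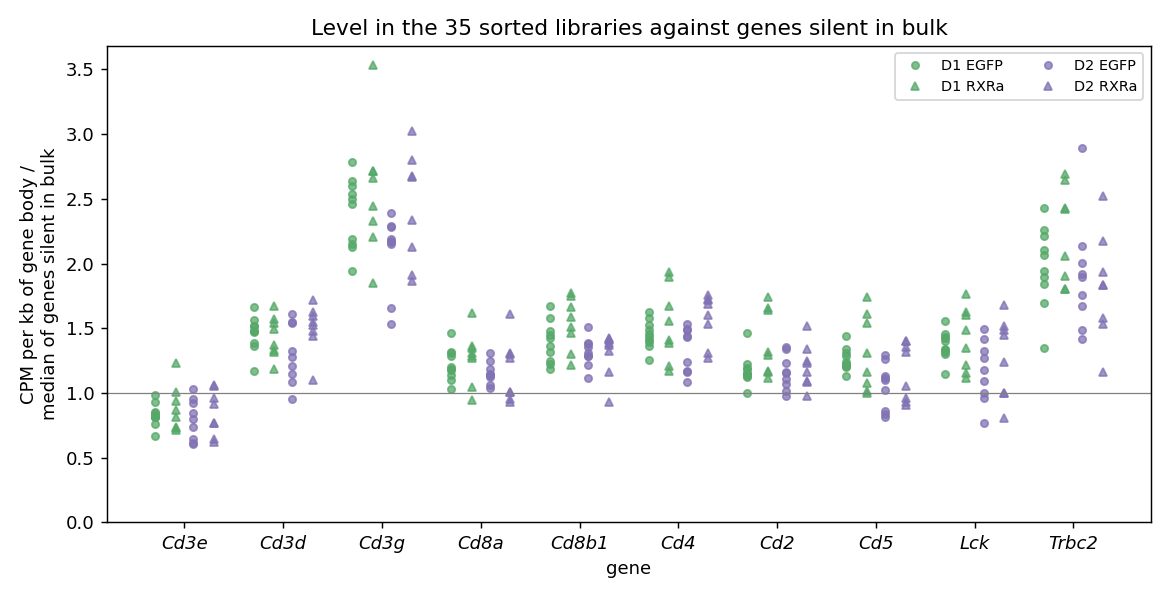
Density of each T cell marker (CPM per kb of gene body) divided by the median density of 1576 genes silent in bulk, in the 35 sorted libraries, by population and vector. Cd3e lies around or below the line at 1, and Cd3g, at 1.53 to 3.54, lies above it in every library.

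The CPM of the markers varied little over the sorted libraries. Cd3e ran from 3.22 to 5.93 CPM (median 4.44) and Cd3g from 9.16 to 15.7 CPM (median 12.6). The highest library exceeded the lowest by 1.84 times for Cd3e and 1.71 times for Cd3g, against 8.76 and 9.88 times over the 8 bulk libraries. Cd4 was the exception among the 10, with 1.46 times in sorted nuclei and 1.63 times in bulk. The remaining 7 spanned 1.58 to 2.98 times in sorted nuclei and 3.60 to 13.9 times in bulk.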

How the data were processed

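Per the submitters' processing notes, the tools named were FastQC, Trimmomatic, HISAT2, Picard, Subread and featureCounts with the build GRCm38. Versions, annotation release, strand setting and whether intron reads were counted are not given in the sources used here. The authors deposited raw counts per gene, as whole numbers, in 1 table for bulk tissue and 1 for sorted nuclei. Symbols and positions come from GENCODE M21 (GRCm38), which held 55394 of 55487 identifiers.

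The 10 markers and the other lists were chosen with earlier results of these data known. Vector sequences were left out of library sizes. Each table was fitted alone with edgeR 4.0.16 in R 4.3.3 (quasi-likelihood test, filterByExpr by group, TMM scaling), and calls used a Benjamini-Hochberg adjusted p under 0.05 over all genes tested. The fit was tested on simulated data. The 35 sorted libraries with a group were fitted as 8 groups, with the sexes weighted equally. CPM are counts per 1000000 of the TMM-scaled library size, computed here. The 72 replicate pairs differed beyond sampling noise (chi-square per gene 1.785 to 63.56), so each library counted as 1 replicate. The highest values, 55.13 to 63.56, all came from pairs with D1 male EGFP replicate 2, the sorted library with the fewest counts. It stayed in the fits, and without it edgeR also called 0 genes in D1. Named genes of other lists were up to 4 per list and comparison, called, with a mean of at least 1 CPM and the largest log2 fold change, and for T cell lists with fewer than 2 such genes the 2 most abundant. DESeq2 1.42.0, other scalings, no filter, a replicate block, a covariate and leaving out libraries were alternatives. The value of 1 gene in the marker lists is not reported here.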

Additional observations from a re-analysis of the deposited data

Results flagged for a closer look

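In the D2 male RXRa libraries, Cd2 was lowest in replicate 3, at 5.66 CPM, with the next library at 7.04 CPM. That gap was 0.845 of the range of the group. It was the sole such library in 100 pairings of marker and group checked. Chance gives about 1 in 20 for each pairing, so 1 in 100 is not more than chance gives.

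The sorted library that entered no comparison held 3 markers above the highest D2 female EGFP library, as CPM of total counts. Cd3g stood at 15.3 against 14.2 CPM, Cd4 at 19.8 against 19.7 CPM and Cd5 at 15.8 against 15.1 CPM.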

How the results depend on the processing

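In bulk, the sign of every marker held under each setting run. The number of markers called was 6, and it ran from 0 to 8 when a library was left out. It was 6 with RLE size factors, 6 with library totals, 8 without a filter and 9 with DESeq2. The numbers shared by GFP and RXRa libraries did not pair them: same-numbered bulk libraries had correlations of deviations of -0.457 to 0.412. With the replicate block 0 markers were called in bulk and 0 in D2, and 0 of all bulk genes were called in place of 687 (3303 at an unadjusted p under 0.05). Over all bulk genes the count was 1565 with DESeq2 and 9 to 1016 with a library left out.

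In D2 nuclei the number of markers called, 1, became 3 with library totals and 0 with RLE size factors, no filter, DESeq2, the replicate block or the silent-gene density as a covariate. It ran from 0 to 2 with a library left out, and the 2 came without D2 female RXRa replicate 3, which also gave 2 in D2 females alone, where it had been 0. Over all genes D2 had 1 call with the replicate block, 0 with the covariate and 0 to 14766 with a library left out.

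Small sorted log2 values changed sign. With library totals, D1 values were -0.054 for Cd8b1 and -0.031 for Trbc2, and D2 values -0.15 for Cd3d and -0.14 for Cd4. With the covariate, D1 values were 0.023 for Cd3e and 0.0024 for Cd8a, and D2 values 0.028 for Cd3e and 0.042 for Cd3g. Cd3g in D2 was 0.012 with RLE size factors, 0.012 with DESeq2 and 0.047 with the replicate block. With a library left out, D1 ranges were -0.081 to 0.015 for Cd3g, -0.030 to 0.052 for Cd8b1 and -0.0075 to 0.10 for Trbc2, and D2 ranges -0.058 to 0.045 for Cd3d, -0.058 to 0.045 for Cd3g and -0.012 to 0.048 for Cd4. The cause was not tested. The median ratio of the 10 markers to silent genes was 1.36 per kb of gene body, and 1.98 per kb of exon. The likeness ranking by the sum without Cd4, chosen after seeing the data, shared 0 of 10 genes with the fixed rule and 8 of 10 with the mean of log2 values. Cd3d had 11 to 34 counts in a GFP library, so small differences in bulk may have been missed. Whether depth or the spread between libraries set that limit was not tested.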

Other observations

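The sorted library without a group had 15630501 counts and a silent-gene density of 0.505 CPM per kb. Of the 10 T cell markers, 6 lay within the range of the 8 D2 female libraries. Beside the 3 above the EGFP range, Trbc2 stood below all 8, at 1.02 CPM of total counts against 1.07 to 2.57.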
